A study of Mus musculus with 6 samples.

Results

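The genes described here are the 7 cyclin-dependent kinase (CDK) inhibitors and the 3 pocket proteins of the mouse, 10 genes in all, taken by exact symbol from the 43283 genes of a table of RNA-sequencing values. The cells were muscle stem cells of 2 groups with 3 libraries each. PGE2 cells were cultured for 24 h with prostaglandin E2, a lipid mediator of injured tissue, and Vehicle cells for 24 h with its solvent DMSO. Both groups came from hindlimb muscle of female C57BL/6 mice, aged 8 to 12 weeks by the sorting protocol and 2 to 4 months by the design text, and were sorted for α7 integrin and CD34 after removal of cells with CD45, Sca1, CD31 or CD11b. The medium of both groups held fetal bovine serum, and the RNA came from small numbers of sorted cells and was amplified. The labels call the libraries biological triplicates and do not say whether each was a separate animal, sort or culture, nor whether animals were pooled, so p-values reflect only the scatter among these libraries, part of which may be technical.

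As background, progress from G1 into S phase depends on CDK4 and CDK6 with D cyclins and on CDK2 with E and A cyclins. INK4 proteins bind CDK4 and CDK6 alone, while Cip/Kip proteins bind cyclin and CDK complexes more widely. The kinases phosphorylate the pocket proteins, which in their less phosphorylated form hold E2F factors and keep E2F target genes low. In myoblasts, p21 and RB are known for their part in the permanent cell cycle exit that goes with differentiation, and p27 has been tied to the return of muscle stem cells to quiescence.

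Values are TPM, a transcript's share of its library after correction for length, so levels may be set side by side between genes as far as length goes. The part of amplification or of sequence shared with other genes in such comparisons was not tested. Of the 10 genes, 8 reached 1 TPM in at least 3 libraries and were tested. With PGE2, 7 of these had the lower fitted value and 1 the higher, where 56.1% of all 12781 genes tested were lower and 43.9% higher. Their median log2 change was -0.60, against -0.07 for all genes. Without PGE2 1, the fitted value was lower for 7 members, of which Cdkn2a stood at -0.01, and the median of all genes was -0.17. The values of Rb1 and Cdkn2c lay lower in every PGE2 library than in every Vehicle library, which makes 2 of 8 tested members where 4.84% of all tested genes did so, and 0 members lay higher without overlap, where 3.18% of all genes did. The members had been chosen with earlier results of these data known, so these counts and medians describe only. None of the 8 passed limma's test (Benjamini-Hochberg adjusted p = 1.00 for each), and 0% of all genes passed it (smallest adjusted p = 0.0704). At an unadjusted limma p under 0.05 there were 0 members, against 3.63% of all genes, 2.06% lower and 1.57% higher. That count was 1 under 8 of the 17 alternatives to the fit, Rb1 in 5 of them and Cdkn1a in 3, both lower with PGE2. Confidence intervals below are for the single gene and are not adjusted for the number of genes. Cdkn1a was the most abundant member in each library.

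The tested set is not the whole family. Cdkn1c was listed at 0 in all 6 libraries and Cdkn2b reached 1 TPM in 2. Both are described by their values.

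**Figure D1:**
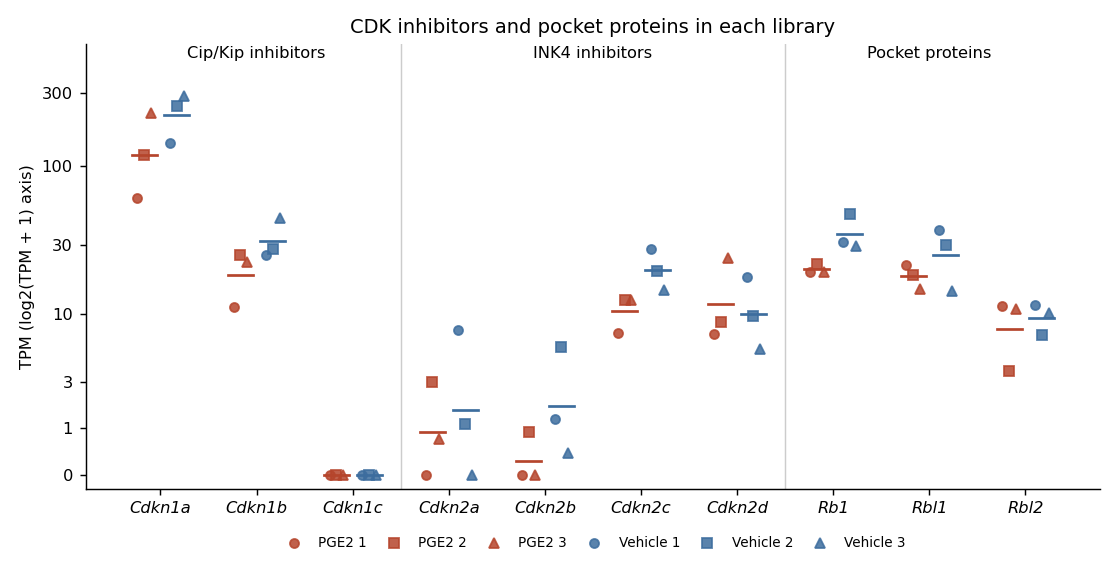
TPM of the 10 genes in each library, on an axis of log2(TPM + 1); symbols mark the library number, red the PGE2 and blue the Vehicle libraries, and horizontal bars the mean of log2(TPM + 1) per group (n = 3). Cdkn1a stands above the other members in all libraries, the red and blue points of Cdkn2c and Rb1 do not overlap, and Cdkn1c lies at 0.

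The promoters of 8 of the 10 genes were found in RefSeq (GRCm38.p6, 11 start sites), as 300 bases each, from 250 before to 50 after a start site. Rb1 and Cdkn1c had no entry. The promoters of 3 genes are printed, each written 5′ to 3′ on the gene's own strand, because they hold sequence motifs of the pathways named here: the stretch at the upstream start site of Cdkn1a, the most abundant member; that of Cdkn2c, 1 of the 2 members whose groups did not overlap; and that of Cdkn2b, the only gene of the 8 with the full cAMP response element (CRE), the site of CREB, a factor activated by cAMP, the second messenger of several PGE2 receptors.
Cdkn1a, chr17:29090729-29091028, plus strand, capitals mark the p53 element: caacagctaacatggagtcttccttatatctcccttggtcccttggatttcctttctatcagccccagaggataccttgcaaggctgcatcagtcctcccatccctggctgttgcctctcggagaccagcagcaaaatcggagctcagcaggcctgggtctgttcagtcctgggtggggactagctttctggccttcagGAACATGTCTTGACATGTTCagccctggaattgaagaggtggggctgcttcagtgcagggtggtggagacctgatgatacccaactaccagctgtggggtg
Cdkn2c, chr4:109666707-109667006, minus strand, capitals mark an E2F motif: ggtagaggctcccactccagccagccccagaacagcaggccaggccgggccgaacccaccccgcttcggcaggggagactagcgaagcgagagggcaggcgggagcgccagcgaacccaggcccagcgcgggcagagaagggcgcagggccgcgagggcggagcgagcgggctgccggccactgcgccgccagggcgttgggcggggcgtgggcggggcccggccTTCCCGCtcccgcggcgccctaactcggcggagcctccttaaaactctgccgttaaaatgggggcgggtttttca
Cdkn2b, chr4:89310983-89311282, minus strand, capitals mark a CHR motif, here read from the other strand, and then the CRE: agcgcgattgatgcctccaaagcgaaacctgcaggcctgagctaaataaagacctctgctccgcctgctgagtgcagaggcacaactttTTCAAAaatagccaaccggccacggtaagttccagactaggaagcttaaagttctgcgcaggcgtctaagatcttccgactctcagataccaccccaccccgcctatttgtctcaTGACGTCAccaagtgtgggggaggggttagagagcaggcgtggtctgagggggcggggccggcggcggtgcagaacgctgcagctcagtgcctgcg

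The p53 element is a pair of adjoining p53 decamers with at most 1 mismatch over both. It lay at chr17:29090928-29090947, and 0.0883% of all 32851 promoters in the RefSeq table held such a pair. This search was added after the promoters had been read. The CRE of Cdkn2b, TGACGTCA, began 46 bases before its start site, and 1.79% of all promoters held it. The E2F letters TTCCCGC lay 25 bases before the start site of Cdkn2c and also in the promoter of the upstream, ARF start site of Cdkn2a, as part of the longer TTTCCCGC. Of all promoters, 4.6% held TTCCCGC and 1.07% held TTTCCCGC. The cell cycle homology region (CHR) letters TTTGAA stood in Cdkn2b and Rbl2, and in 17.9% of all promoters. The core TGACG, which is part of the CRE, stood in Cdkn1b, Cdkn2b and Rbl2, and in 20.8% of all. A CANNTG E-box, the kind of site that MyoD binds, stood in Cdkn1a, Cdkn2b, Cdkn2c and Rbl1, and in 72.3% of all promoters, and its CACGTG form, also counted as CANNTG, in the downstream promoter of Cdkn2c and in 7.15% of all. TTTGGCGC was in none of the 11 and in 0.514% of all. Each motif was read on both strands, and a match describes letters, not binding.

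As to the libraries, genes above 0 numbered 15400 to 17710 in PGE2 and 16446 to 19677 in Vehicle, and mitochondrial genes held 23.0% to 30.4% of the TPM in PGE2 and 20.9% to 33.6% in Vehicle. Over genes, pairs of PGE2 libraries correlated with a Pearson's r of 0.807 to 0.846, pairs of a PGE2 and a Vehicle library with 0.833 to 0.897, and pairs of Vehicle libraries with 0.886 to 0.926. PGE2 1 was the lowest library for Cdkn1a, Cdkn1b and Cdkn2c and had the fewest genes above 0; the part of this in their values was not tested beyond leaving it out. The depth behind each value is unknown, as it cannot be read from TPM.

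Among the Cip/Kip inhibitors, Cdkn1a encodes p21, an inhibitor of CDK2 complexes and a direct target of p53 that MyoD also induces in myoblasts (ENSMUSG00000023067, mm10 chromosome 17, 29090976 to 29100727, plus strand). It was at 61.9, 119 and 222.5 TPM in PGE2 1 to 3 and at 142, 249 and 289 TPM in Vehicle 1 to 3. PGE2 1 and PGE2 2 lay below all Vehicle libraries, and PGE2 3 lay within their range. The means were 134.5 ± 81.4 TPM with PGE2 and 226.7 ± 75.7 TPM with Vehicle (SD, n = 3 each). The log2 change of Cdkn1a was -0.87 ± 0.46 (SE; 95% confidence interval -1.91 to 0.16; limma, Benjamini-Hochberg adjusted p = 1.00). Without PGE2 1 it was -0.41 and without PGE2 3 it was -1.33. Between 85.1% and 96.3% of the tested genes were at or below the level of Cdkn1a in the PGE2 libraries, and between 93.1% and 97.1% in the Vehicle libraries.

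The table does not separate the transcripts of Cdkn1a, of which GENCODE M21 lists 5, 4 of them protein-coding. Of its 3547 different 50-base windows, 301 (8.49%) also occur in transcripts of 584 other genes. Of these windows, 225 occur in AC167363.2, which lies on the other strand around the downstream start site of Cdkn1a. The table holds no values for AC167363.2. As the sources used here do not say whether reads were counted by strand, reads of such overlaps cannot be told apart.

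Cdkn1b encodes p27, which holds CDK2 complexes inactive and is removed by ubiquitin-dependent breakdown when cells enter S phase (ENSMUSG00000003031, chromosome 6, 134920401 to 134925513, plus strand). It was at 11.3, 25.9 and 23.0 TPM in PGE2 1 to 3 and at 25.7, 28.1 and 45.8 TPM in Vehicle 1 to 3. The groups overlapped only in that PGE2 2 stood just above Vehicle 1. Its means were 20.1 ± 7.73 TPM with PGE2 and 33.2 ± 10.96 TPM with Vehicle (SD, n = 3 each), and the log2 change was -0.73 (95% confidence interval -1.67 to 0.21; limma, Benjamini-Hochberg adjusted p = 1.00). Without PGE2 1 the log2 change of Cdkn1b was -0.38. None of its 4586 windows of 50 bases occurs in another gene's transcripts.

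Cdkn1c encodes p57, the inhibitor of this family that is expressed from the maternal allele (ENSMUSG00000037664, chromosome 7, 143458339 to 143461050, minus strand). It was listed at 0 in all PGE2 and all Vehicle libraries. An exact 0 in a table of estimated values can be a failed estimate. Of the 50-base windows of Cdkn1c, 24.9% are shared with Gm44732, an antisense gene for which the table holds no values. The part of these windows in the 0 was not tested. Summed over the family, the Cip/Kip transcripts came to 73.2, 145.0 and 245.5 TPM in PGE2 1 to 3 and to 168.1, 277.0 and 334.7 TPM in Vehicle 1 to 3, which overlap.

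Among the INK4 inhibitors, Cdkn2c encodes p18 (ENSMUSG00000028551, chromosome 4, 109660876 to 109667189, minus strand). It was at 7.35, 12.6 and 12.8 TPM in PGE2 1 to 3 and at 28.3, 20.2 and 15.0 TPM in Vehicle 1 to 3. Each PGE2 library was below each Vehicle library, with the narrowest gap between PGE2 3 and Vehicle 3. The means were 10.9 ± 3.07 TPM with PGE2 and 21.2 ± 6.69 TPM with Vehicle (SD, n = 3 each). The log2 change of Cdkn2c was -0.89 ± 0.43 (SE; 95% confidence interval -1.84 to 0.06; limma, Benjamini-Hochberg adjusted p = 1.00), or 0.540-fold on the log2(TPM + 1) scale. The separation depended on the scaling: the ranges of Cdkn2c were 6.09 to 14.7 in PGE2 and 14.6 to 27 in Vehicle after median-of-ratios scaling, which overlap, and they also overlapped after quantile normalization. They stayed apart, at 9.62 to 18.4 TPM in PGE2 and 22.7 to 36.0 TPM in Vehicle, when TPM were rescaled without mitochondrial genes. Cdkn2c shares no 50-base window with other genes.

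Cdkn2d encodes p19, which like p18 binds CDK4 and CDK6 (ENSMUSG00000096472, chromosome 9, 21288410 to 21291407, minus strand). It was at 7.26, 8.87 and 24.8 TPM in PGE2 1 to 3 and at 18.3, 9.83 and 5.59 TPM in Vehicle 1 to 3. The groups overlapped broadly, and PGE2 3 was the highest of the 6. For Cdkn2d the log2 change was 0.20 (95% confidence interval -1.10 to 1.51; limma, Benjamini-Hochberg adjusted p = 1.00), and it was -0.30 without PGE2 3 and -0.17 without Vehicle 3.

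The makeup of the INK4 transcripts, a ratio within a library that a scaling by 1 factor per library leaves as it is, differed between the groups without overlap. Cdkn2c made up 50.3%, 49.6% and 33.4% of the summed INK4 TPM in PGE2 1 to 3, against 50.9%, 54.7% and 71.5% in Vehicle 1 to 3. The share of Cdkn2d was 49.7%, 35.0% and 64.8% in PGE2 1 to 3, against 32.9%, 26.6% and 26.7% in Vehicle 1 to 3. For Cdkn2c the gap was small, between PGE2 1 and Vehicle 1. An exact permutation test of 3 libraries against 3 cannot give a two-sided p under 0.1, and these ratios were chosen after their values were seen, so no test is given.

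Cdkn2a encodes both p16 and, from an upstream start site and another reading frame, p19ARF, which acts on p53 through MDM2 (ENSMUSG00000044303, chromosome 4, 89274471 to 89294653, minus strand). The table sums both products. It was at 0, 3.03 and 0.71 TPM in PGE2 1 to 3 and at 7.72, 1.13 and 0 TPM in Vehicle 1 to 3. Both groups held a library at 0 and overlapped. For Cdkn2a the log2 change was -0.48 (95% confidence interval -2.38 to 1.42; limma, Benjamini-Hochberg adjusted p = 1.00) and turned to 0.38 without Vehicle 1. Cdkn2b, its neighbour on chromosome 4 (ENSMUSG00000073802, 89306299 to 89311039, minus strand), encodes p15, an inhibitor known as a target of TGF beta signalling. It was listed at 0 in PGE2 1 and PGE2 3 and read 0.89 TPM in PGE2 2, against 1.30, 5.80 and 0.39 TPM in Vehicle 1 to 3. These groups overlapped, and Cdkn2b was not tested.

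**Figure D2:**
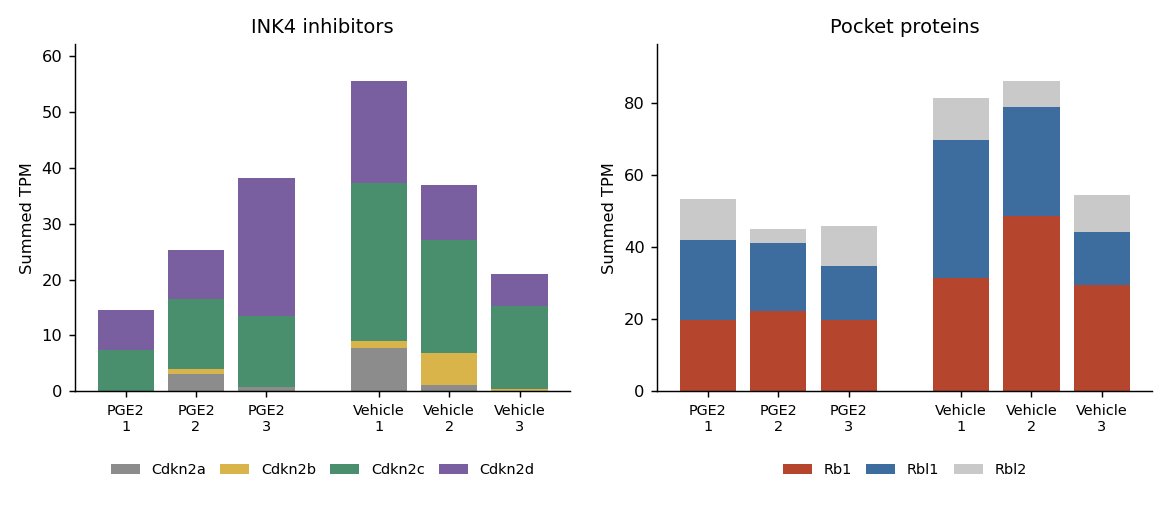
Summed TPM of the 4 INK4 inhibitors (left) and of the 3 pocket proteins (right), stacked by gene, in each library, with PGE2 1 to 3 left of Vehicle 1 to 3. Bars start at 0. The INK4 sums of the groups overlap, while the pocket protein sums of the PGE2 libraries, 45.0 to 53.3 TPM, lie below those of the Vehicle libraries, 54.4 to 86.0 TPM. Of the pocket proteins, only Rb1 lies apart by itself.

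Among the pocket proteins, Rb1 encodes RB, the retinoblastoma protein, which holds the activating E2F factors (ENSMUSG00000022105, chromosome 14, 73183673 to 73325822, minus strand). It was at 19.9, 22.4 and 19.7 TPM in PGE2 1 to 3 and at 31.6, 48.5 and 29.5 TPM in Vehicle 1 to 3. All PGE2 libraries lay below all Vehicle libraries. In TPM the PGE2 libraries lay close together, with a highest value 1.14 times the lowest, where this was 1.65 times in Vehicle. This closeness depended on the scaling. PGE2 values ran from 16.5 to 23.7 after median-of-ratios scaling and from 17.1 to 23.7 after quantile normalization. The means were 20.6 ± 1.51 TPM with PGE2 and 36.5 ± 10.5 TPM with Vehicle (SD, n = 3 each). The log2 change of Rb1 was -0.76 ± 0.35 (SE; 95% confidence interval -1.54 to 0.01; limma, Benjamini-Hochberg adjusted p = 1.00), or 0.590-fold on the log2(TPM + 1) scale. It ran from -0.89 to -0.54 with 1 library left out, the smallest size being that without Vehicle 2. The groups of Rb1 also stayed apart after median-of-ratios scaling (16.5 to 23.7 in PGE2 and 28.7 to 46.9 in Vehicle), after quantile normalization and without mitochondrial genes. The summed TPM of 12 markers of differentiated muscle, 13.5 to 21.8 in PGE2 and 34.4 to 55.6 in Vehicle, was likewise lower in each PGE2 library. A part of this sum that varied between libraries was the titin gene Ttn, at 4.90 to 10.8 TPM in PGE2 and 14.1 to 44.2 TPM in Vehicle. The sum of the remaining markers, without Ttn, overlapped between the groups. The part of the differentiated muscle markers in the values of Rb1, Cdkn2c and Cdkn1a was not tested. In bulk samples fewer cells of a type and less RNA per cell cannot be told apart.

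Rb1 overlaps other genes. Of its 50-base windows 12.0% are shared, with Rcbtb2, whose end runs into it from the other strand, and with Lpar6, which lies within it. Rcbtb2 read 27.2, 22.2 and 11.6 TPM in PGE2 1 to 3 and 16.6, 11.6 and 17.5 TPM in Vehicle 1 to 3, and Lpar6 read 5.28, 2.66 and 4.5 TPM in PGE2 1 to 3 and 3.69, 3.59 and 2.03 TPM in Vehicle 1 to 3. Both overlapped between the groups and neither was lower in all PGE2 libraries. Their part in the values of Rb1 was not tested.

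Rbl1 encodes p107, which with E2F4 represses cell cycle genes and is itself high in cycling cells (ENSMUSG00000027641, chromosome 2, 157145893 to 157204534, minus strand). It was at 22.0, 18.9 and 15.2 TPM in PGE2 1 to 3 and at 38.2, 30.3 and 14.7 TPM in Vehicle 1 to 3. Vehicle 3 was the lowest of the 6 libraries, and Vehicle 1 and Vehicle 2 the highest. For Rbl1 the log2 change was -0.46 (95% confidence interval -1.41 to 0.49; limma, Benjamini-Hochberg adjusted p = 1.00). It was -0.85 without Vehicle 3 and -0.19 without Vehicle 1.

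Rbl2 encodes p130, the pocket protein of quiescent cells, where it binds E2F4 and the MuvB proteins in the DREAM complex (ENSMUSG00000031666, chromosome 8, 91070057 to 91123844, plus strand). It was at 11.4, 3.72 and 10.9 TPM in PGE2 1 to 3 and at 11.6, 7.14 and 10.2 TPM in Vehicle 1 to 3. PGE2 2 was the lowest of the 6 libraries, and the other PGE2 libraries lay within the Vehicle range. For Rbl2 the log2 change was -0.24 (95% confidence interval -1.41 to 0.93; limma, Benjamini-Hochberg adjusted p = 1.00) and was 0.21 without PGE2 2. Of its 50-base windows 17.1% are shared, with Aktip and with Gm45464. No values are listed for Gm45464. Aktip read 5.14, 7.81 and 8.32 TPM in PGE2 1 to 3 and 12.76, 4.95 and 4.37 TPM in Vehicle 1 to 3. These values overlapped between the groups, and the part of Aktip in the values of Rbl2 was not tested.

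Summed, the pocket protein transcripts came to 53.3, 45.0 and 45.7 TPM in PGE2 1 to 3 and to 81.3, 86.0 and 54.4 TPM in Vehicle 1 to 3. The sums did not overlap, though PGE2 1 and Vehicle 3 lay close together, and the gap was narrower still after median-of-ratios scaling (44.1 to 52.6 in PGE2 and 53 to 83.0 in Vehicle). By itself only Rb1 was lower in each PGE2 library, while Rbl1 and Rbl2 each overlapped between the groups. The share of each pocket protein in the sum overlapped between the groups. Rb1 made up 37.3% to 49.8% in PGE2 and 38.8% to 56.4% in Vehicle, Rbl1 33.2% to 41.9% in PGE2 and 26.9% to 46.9% in Vehicle, and Rbl2 8.27% to 23.8% in PGE2 and 8.30% to 18.8% in Vehicle.

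**Figure D3:**
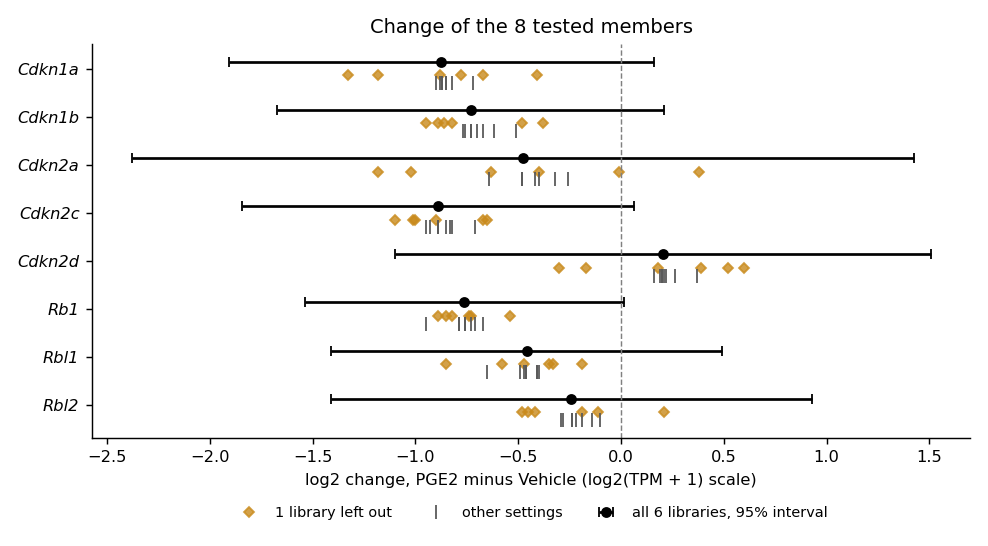
Log2 change (PGE2 minus Vehicle, log2(TPM + 1) scale) of the 8 tested members: black points and bars are the limma estimate over all 6 libraries and its 95% confidence interval, diamonds the value with 1 library left out, and ticks the value under other settings. Every interval includes 0. The diamonds and ticks of Cdkn1a, Cdkn1b, Cdkn2c, Rb1 and Rbl1 stay below 0. For Cdkn2a, Cdkn2d and Rbl2 the diamonds lie on both sides of 0, while the ticks stay on the side of the black point.

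By mean level, the order in PGE2 was Cdkn1a, Rb1, Cdkn1b, Rbl1, Cdkn2d, Cdkn2c, Rbl2, Cdkn2a, Cdkn2b and Cdkn1c. In Vehicle it was the same but for Cdkn2c, which stood before Cdkn2d. Between neighbours, the ranges over libraries were apart in PGE2 between Cdkn1a and Rb1 and between Rbl2 and Cdkn2a. In Vehicle they were apart between Cdkn1a and Rb1 and between Cdkn2b and Cdkn1c. All other neighbours overlapped. Cdkn1a made up 70.5%, 69.9% and 78.4% of the TPM of the 7 inhibitors in PGE2 1 to 3 and 63.7%, 79.3% and 81.2% in Vehicle 1 to 3.

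The inhibitors were also set against the transcripts of their partners. The D cyclins Ccnd1, Ccnd2 and Ccnd3 summed to 819, 535 and 671 TPM in PGE2 1 to 3 and to 674, 768 and 718 TPM in Vehicle 1 to 3. For every 100 TPM of D cyclins there were 7.55, 22.3 and 33.2 TPM of Cdkn1a in PGE2 1 to 3 and 21.1, 32.4 and 40.2 TPM in Vehicle 1 to 3. For every 100 TPM of Cdk4 and Cdk6 there were 8.34, 19.6 and 24.2 TPM of INK4 transcripts in PGE2 1 to 3 and 43.0, 19.4 and 9.43 TPM in Vehicle 1 to 3. Both ratios overlapped between the groups.

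The genes around the inhibitors were counted over lists chosen with earlier results of these data known, and none of their genes passed limma's test over all genes. Of 13 tested G1 cyclins and CDKs, 4 stood higher and 9 lower by fitted value (median log2 change -0.10). Ccnd1, the D cyclin of proliferating myoblasts, was at 792, 498 and 628 TPM in PGE2 1 to 3 and 647, 735 and 683 TPM in Vehicle 1 to 3, and the S phase cyclin Ccna2 had a log2 change of -0.14. E2F and DP factors had 8 higher and 2 lower of 10 (median 0.07), but 6 were lower without PGE2 1, 5 without PGE2 2 and 4 without Vehicle 1. E2f8, a repressing E2F, read 132, 26.7 and 38.5 TPM in PGE2 1 to 3 and 47.8, 37.2 and 28.3 TPM in Vehicle 1 to 3, and the E2F partner Tfdp1 had a log2 change of 0.02. E2F targets had 3 higher and 17 lower of 20 (median -0.16). Of these, 9 were lower without PGE2 2 and 10 without PGE2 3. Among these targets the replication genes Rrm2 and Pcna had log2 changes of -0.11 and 0.19. The MuvB core with B-Myb and partners had 1 higher and 7 lower of 8 (median -0.28), with the histone-binding Rbbp4 at 543 ± 27.6 TPM in PGE2 and 649 ± 111 TPM in Vehicle (SD, n = 3 each) and the mitotic factor Foxm1 at a log2 change of -0.45. With 1 library left out, 5 (without Vehicle 1) to 7 genes of this list were lower.

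Genes that turn over p27 and p21 had 1 higher and 11 lower of 12 (median -0.27). With 1 library left out, between 8 (without PGE2 2) and 12 (without Vehicle 2) of them were lower. Cks1b, the cofactor of SKP2 in the breakdown of p27, was at 201 ± 11.9 TPM in PGE2 and 234 ± 86.5 TPM in Vehicle (SD, n = 3 each), and the ligase scaffold Cul4a had a log2 change of -0.31. In the p53 pathway around p21, 3 were higher and 12 lower of 15 (median -0.34), and between 10 (without PGE2 2) and 14 (without PGE2 3) were lower with 1 library left out. Gadd45a, a stress gene that p53 induces alongside p21, was at 47.7, 106 and 150 TPM in PGE2 1 to 3 and at 177, 191 and 235 TPM in Vehicle 1 to 3. All PGE2 values of Gadd45a were below all Vehicle values, and its log2 change was -1.12 (95% confidence interval -2.03 to -0.21; limma, Benjamini-Hochberg adjusted p = 1.00). The p53 targets Pmaip1 and Btg2 had log2 changes of -0.99 and -1.26 (limma, Benjamini-Hochberg adjusted p = 1.00 for both). Gadd45a, Pmaip1 and Btg2 were named for having the smallest unadjusted p of their list. Its 3 higher genes were Sesn2, Sesn1 and Mdm4, with log2 changes of 0.16, 0.11 and 0.02.

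Regulators of the Cdkn2a locus had 5 higher and 7 lower of 12 (median -0.14), and their members named here act in opposite ways on it. Ezh2, the methyltransferase of Polycomb that silences the locus, was at 123, 79.5 and 94.2 TPM in PGE2 1 to 3 and at 151, 154 and 151 TPM in Vehicle 1 to 3, so that the groups did not overlap. Its log2 change was -0.64 (limma, Benjamini-Hochberg adjusted p = 1.00). Kdm6b, a demethylase that removes that mark, was at 14.1, 45.9 and 53.6 TPM in PGE2 1 to 3 and at 115, 81.3 and 52.1 TPM in Vehicle 1 to 3, with PGE2 3 just above Vehicle 3 and a log2 change of -1.23 (limma, Benjamini-Hochberg adjusted p = 1.00). Partners of the pocket proteins in myogenic exit had 6 higher and 3 lower of 9 (median 0.13), with Hdac2, a histone deacetylase, at a log2 change of -0.25 and Myod1 at 0.13, and 5 of the 9 were lower without PGE2 1.

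**Figure D4:**
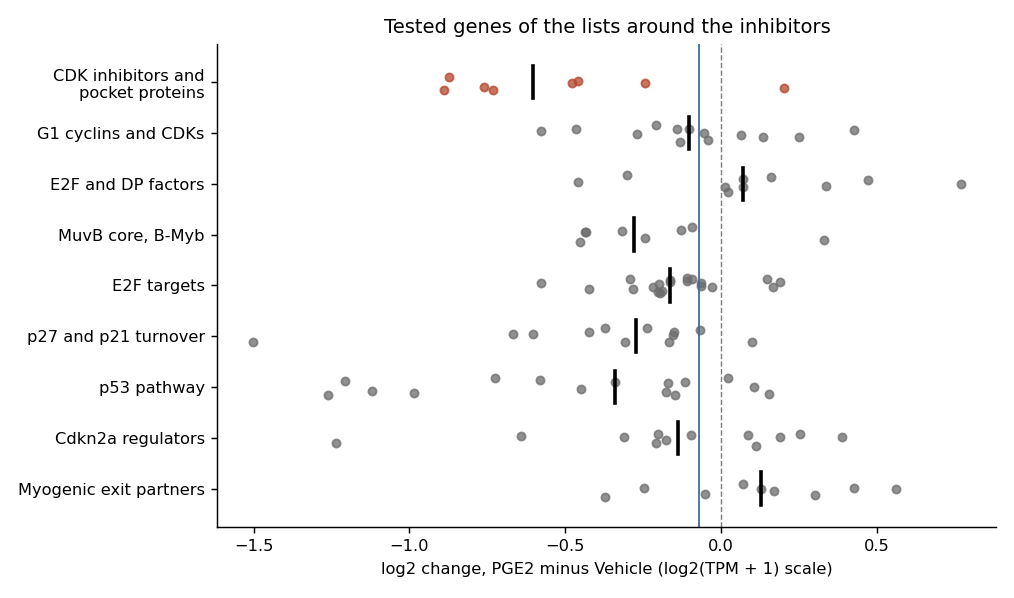
Log2 change (PGE2 minus Vehicle, log2(TPM + 1) scale) of every tested gene of 9 lists, with 1 point a gene, a black bar at the list's median, a blue line at the median of all 12781 tested genes (-0.07) and a dashed line at 0. The 8 members (red) have a median of -0.60, and the medians of the other lists lie between -0.34 and 0.13.

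The genes most like a member in their values over the 6 libraries were looked up among the 7384 protein-coding genes that averaged at least 5 TPM, as a description, since some of so many genes will follow any 6 values closely. By Pearson's r of log2(TPM + 1), the nearest to Cdkn1a were Ammecr1 (0.996), the mitotic kinase gene Aurkb (0.992) and Dr1 (0.991). The nearest to Cdkn2c were Esco2, a cohesin acetyltransferase (0.995), Tars (0.986) and Tmem159 (0.982). The nearest to Rb1 were Slc4a7, a bicarbonate carrier (0.980), the oestrogen receptor Esr1 (0.961) and Vps36 (0.960). For Cdkn1b they were Bcl2l1, which blocks apoptosis (0.990), Snrpb2 (0.988) and Adi1 (0.978). For Cdkn2d they were Senp6 (0.978), Arpc1b (0.946) and Bet1 (0.937). For Rbl1 they were Lman1 (0.994), the cohesin subunit gene Smc3 (0.990) and C2cd5 (0.973), and for Rbl2 they were Gprasp1 (0.989), Dolpp1 (0.986) and Thumpd3 (0.984). Among the members, Cdkn1a was most like Cdkn1b (0.862) and Cdkn2c most like Rb1 (0.721).

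The identity of the cells was checked on their markers. The lists hold genes of the sort itself, so the check was partly fixed by the sort. They are Itga7 and Cd34 for muscle stem cells, Ptprc and Itgam for leukocytes, Pecam1 for endothelial and Ly6a for fibro-adipogenic cells. All 10 muscle stem cell markers were in the tested set, among them Myf5, Sdc4 and Myod1 as the most abundant, and their TPM summed to 687 to 1000 in PGE2 and 802 to 1049 in Vehicle. Cdh15 was low, at 5.15, 0.43 and 0.79 TPM in PGE2 1 to 3 and 3.56, 1.38 and 0 TPM in Vehicle 1 to 3. The summed TPM of 10 leukocyte markers was 8.25 to 15.0 in PGE2 and 3.36 to 11.8 in Vehicle, with Cd52 at 0 throughout. Among them Laptm5, Ptprc and Csf1r averaged 2.59, 3.36 and 2.31 TPM with PGE2 and 3.09, 1.82 and 0.42 TPM with Vehicle. For 10 endothelial markers the sum was 7.18 to 19.9 in PGE2 and 5 to 10.8 in Vehicle, with Cldn5 at 0 throughout. Emcn read 0.69, 0.81 and 15.27 TPM in PGE2 1 to 3 and 0.87, 0.85 and 0.15 TPM in Vehicle 1 to 3. Eng read 2.55, 6.44 and 2.54 TPM in PGE2 1 to 3 and 1.57, 1.10 and 0.96 TPM in Vehicle 1 to 3. It was thus higher in each PGE2 library, as were 3.18% of all tested genes. Tek averaged 0.89 TPM with PGE2 and 2.07 TPM with Vehicle. For 10 fibro-adipogenic markers the sum was 41.8 to 55.2 in PGE2 and 30.4 to 41.6 in Vehicle, with Pi16 at 0 throughout. Ly6a, the Sca1 gene, read 0, 13.55 and 0 TPM in PGE2 1 to 3 and 2.22, 3.38 and 7.92 TPM in Vehicle 1 to 3. The sum of 8 pericyte and smooth muscle markers was 12.6 to 33.1 in PGE2 and 8.47 to 27.3 in Vehicle, and that of 6 glial markers 3.44 to 10.3 in PGE2 and 4.42 to 6.22 in Vehicle. Of the 12 markers of differentiated muscle, 4 were tested, all with lower fitted values. Among the 12, the titin gene Ttn was at 9.71, 10.8 and 4.90 TPM in PGE2 1 to 3 and at 44.2, 19.6 and 14.1 TPM in Vehicle 1 to 3, Tnnc2 was at 0 throughout, and Myog, the myogenin gene of early differentiation, was listed at 0 in the PGE2 libraries and read 0.91, 3.52 and 1.45 TPM in Vehicle 1 to 3. Myh2, Ckm and Myh1, also of the 12 and not tested, had higher means with PGE2. These were 1.83, 0.27 and 0.13 TPM, against 0.27, 0 and 0.03 TPM with Vehicle. The means were low and uneven over the libraries. In PGE2 1 to 3, Myh2 read 0, 0.83 and 4.66 TPM, Ckm 0, 0 and 0.82 TPM and Myh1 0, 0.4 and 0 TPM. The fibro-adipogenic sums lay just apart, with Col3a1, a collagen gene, as the most abundant marker at a log2 change of 0.53, while of the 4 tested markers of that list 1 had a higher and 3 a lower fitted value (median log2 change -0.27). The part of these markers in the values of Rb1 and Cdkn2c was not tested.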

How the data were processed

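RNA was measured in 6 libraries of cultured muscle stem cells, 3 with PGE2 and 3 with Vehicle. Per the labels' protocols, RNA extraction used a Qiagen RNeasy Micro column, followed by NuGEN Ovation amplification before Illumina library construction. Per the submitters' processing notes, STAR, RSEM and the build mm10 were used; of versions, settings, strand handling and annotation nothing is given in the sources used here. The authors deposited 1 table of TPM values, a unit read from the values, which sum to 992357 to 995645 per library.

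Genes had to reach 1 TPM in 3 or more of the libraries, and log2(TPM + 1) of PGE2 was compared with Vehicle by limma (version 3.58.1, R 4.3.3), two-sided and with a trend on mean expression in its variance prior, with Benjamini-Hochberg adjustment over all 12781 genes and a threshold of 0.05. The count tests of the design were not used, as the table holds no counts. Log2 changes of low genes are understated by the pseudocount of 1 TPM. The fit was tested on simulated data. Named genes are the 10 members, per list up to 3 genes with a p under 0.1 or otherwise the 2 most abundant, the 3 genes most like a member, and the most abundant or absent markers. Myog, Myh1, Myh2, Ckm, Cdh15, Mdm4, Sesn1, Sesn2, the INK4 shares and the overlapping genes were chosen after their values were seen. The members and lists were chosen with earlier results of these data known. Positions are from GENCODE M21, in which 42782 of the 43283 identifiers were found, and promoters from RefSeq; Python 3.11.15 drew the figures. Alternatives covered the pseudocount, filter, scaling, variance prior, weights per library, a block for the replicate number and each library left out.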

Additional observations from a re-analysis of the deposited data

How the results depend on the processing

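No member passed limma's threshold under any of the 17 alternatives run, with Benjamini-Hochberg adjusted p from 0.651 to 1.00. The number of members with a lower fitted value stayed between 6 and 8. Over all genes the number past the threshold was 0, and it became 1 with a robust variance prior, 4 without a mean trend and 0 to 2 with 1 library left out: 2 without PGE2 3, and 1 each without PGE2 1, PGE2 2 and Vehicle 1. At an unadjusted p under 0.05, Rb1 was the 1 member with a pseudocount of 0.1 TPM, no filter, a filter at a mean of 5 TPM, no mitochondrial genes or library weights, and Cdkn1a with the replicate block, without Vehicle 1 or without PGE2 3 (464 genes had an unadjusted p under 0.05, 979 without PGE2 1, 758 without PGE2 3 and 259 with a filter at a mean of 5 TPM). With 1 library left out, the log2 change ranged from -1.33 to -0.41 for Cdkn1a, -0.95 to -0.38 for Cdkn1b, -1.18 to 0.38 for Cdkn2a, -1.10 to -0.65 for Cdkn2c, -0.30 to 0.60 for Cdkn2d, -0.89 to -0.54 for Rb1, -0.85 to -0.19 for Rbl1 and -0.48 to 0.21 for Rbl2. The sign turned for Cdkn2a without Vehicle 1 (0.38), for Cdkn2d without Vehicle 3 (-0.17) or PGE2 3 (-0.30) and for Rbl2 without PGE2 2 (0.21); no other alternative turned a sign, and the cause was not tested. Cdkn2a could not be fitted at a mean of 5 TPM or more, and count tests were not run.

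Libraries with the same number deviated from their group means with correlations across genes of -0.0479, -0.00604 and 0.0861, so the numbers were not taken to pair them. With the replicate number as a block, 0 genes passed and 482 had an unadjusted p under 0.05; the members kept a Benjamini-Hochberg adjusted p of 1.00 in limma, and 1 of them, Cdkn1a, came under an unadjusted p of 0.05. Read depth, which TPM does not keep, limits what can be said of Cdkn2a, Cdkn2b and Cdkn1c.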
